A study of Mus musculus with 76 samples.

Results

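The thermogenic program of brown fat was followed here through 8 genes, Ucp1, Cidea, Dio2, Elovl3, Cox7a1, Cox8b, Ppargc1a and Prdm16, among the 54232 genes of a mouse RNA-seq count table. They were taken by name as a list, by a rule that uses no measured value, though earlier results of these data were known when the list was chosen. All animals were male Fox Chase SCID mice (CB17/Icr-Prkdcscid) of 12 weeks, a strain that lacks mature T and B lymphocytes. The 5 arms were sham surgery without cells (Sham), partial nephrectomy without cells (PNx), and partial nephrectomy with transplanted control cells, with Lenti-adipo-scrambled cells or with Lenti-adipo-NaKtide cells. NaKtide is a peptide inhibitor of Src kinase signalling through the Na/K-ATPase, and the scrambled arm is its control by name. The labels do not say what the transplanted cells were, how they were given, which visceral depot was taken, or that the libraries of an arm came from separate animals, so the p-values measure the spread between these samples, which may be technical in part. Visceral adipose tissue (VFAT) gave 24 samples, 5 per arm and 4 in the scrambled arm, after a second library of scrambled cells 3 was added to the first. Heart gave 25 samples, 5 per arm, and is described library by library.

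Brown adipocytes make heat by letting protons return across the inner mitochondrial membrane through UCP1, so that fuel is burnt without making ATP. Noradrenaline acts on beta-adrenergic receptors, raises cyclic AMP, releases fatty acids that open UCP1, and turns on Ucp1, Dio2 and Ppargc1a. White depots can gain UCP1-positive beige adipocytes, while classical brown fat sits mainly between the shoulder blades and along the large vessels and the kidney. Among the listed genes, Ucp1 is the most specific to brown and beige cells. Cidea encodes a lipid droplet protein, Elovl3 an elongase of very long fatty acids and Dio2 the deiodinase that makes active thyroid hormone inside the cell. Cox7a1 and Cox8b encode cytochrome oxidase subunits that heart and skeletal muscle also use, Ppargc1a a coactivator of mitochondrial genes and Prdm16 a transcriptional regulator that sets brown against muscle fate.

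Promoters are shown because the cyclic AMP response element, the site through which adrenergic signals act on many genes, differs between them. RefSeq windows of 250 bases before the gene start (GRCm38.p6) were at hand for 6 of the 8 genes, Cidea and Elovl3 having no entry. Printed in lower case 5′ to 3′ on the gene's strand, with matches in capitals, are Ucp1 (chr8:83290098-83290347, plus strand) and Cox7a1 (chr7:30183921-30184170, plus strand), the members that fell after nephrectomy, and Dio2 (chr12:90739039-90739288, minus strand), which holds the whole element and did not pass the test.
Ucp1: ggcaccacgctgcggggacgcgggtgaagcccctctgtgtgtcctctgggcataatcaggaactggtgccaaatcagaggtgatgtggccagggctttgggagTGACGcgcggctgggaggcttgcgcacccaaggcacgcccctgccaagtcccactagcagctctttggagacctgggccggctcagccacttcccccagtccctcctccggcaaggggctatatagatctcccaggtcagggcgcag
Dio2: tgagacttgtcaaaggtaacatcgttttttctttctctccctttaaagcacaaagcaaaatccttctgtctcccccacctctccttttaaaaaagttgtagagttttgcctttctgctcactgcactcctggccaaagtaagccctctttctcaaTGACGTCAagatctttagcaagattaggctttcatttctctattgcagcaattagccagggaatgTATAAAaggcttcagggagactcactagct
Cox7a1: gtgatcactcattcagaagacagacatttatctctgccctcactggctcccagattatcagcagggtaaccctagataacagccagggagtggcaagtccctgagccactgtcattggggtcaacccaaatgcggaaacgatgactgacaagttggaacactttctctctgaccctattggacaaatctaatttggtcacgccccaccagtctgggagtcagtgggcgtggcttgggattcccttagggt
The motifs searched on both strands were the cyclic AMP element TGACGTCA, its core TGACG, which the whole element contains on each strand, the PPAR repeat of 2 copies of AGGTCA 1 base apart, the estrogen-related receptor site AAGGTCA and the TATA box TATAAA. In the Dio2 window TGACGTCA began 95 bases before the start and TATAAA 30 bases before it. Distances count from the start at the end of each RefSeq window. That start differs from the gene bounds given below, for Dio2 and Cox7a1 among others. The Ucp1 window held 1 core, 147 bases before the start, and the Ppargc1a window (chr5:51567726-51567975, minus strand) held 1 on the opposite strand, 49 bases before the start. No match to the 5 motifs lay in the windows of Cox7a1, Cox8b and Prdm16. Among all 32851 windows of this length, 1.55% held TGACGTCA, 17.8% the core, 0.0335% the PPAR repeat, 4.08% AAGGTCA and 12.4% TATAAA. A match describes letters only, and the known distal enhancers of Ucp1 lie outside such a window.

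Levels were compared between genes per transcript length, in the deposited FPKM values. Over the 24 VFAT samples the median was highest for Cox8b at 149 FPKM (lowest 14.2, highest 601), followed by Cidea at 12.7 (2.62 to 69.7) and Cox7a1 at 9.7 (1.44 to 159). The other members had medians near or under 1 FPKM, namely Elovl3 at 1.04, Ucp1 at 0.805, Ppargc1a at 0.779, Dio2 at 0.721 and Prdm16 at 0.439. The sample ranges of neighbours in this order overlapped. Ucp1 varied most among the members listed above 0 in every sample, from 0.035 to 69.8 FPKM, a ratio of 1994, and Ppargc1a least, from 0.185 to 1.44, a ratio of 7.76. Its counts ran from 1 to 1239 per sample, and 10 of the 24 samples had fewer than 10, so low Ucp1 values rest on a few reads. Elovl3 had 0 to 185 counts, with 11 samples under 10. The members lie on GRCm38 at chr8:83290352-83298452 (Ucp1), chr18:67343604-67367785 (Cidea), chr12:90724552-90738438 (Dio2), chr19:46131897-46135694 (Elovl3), chr7:30184144-30186078 (Cox7a1), chr7:140898945-140900446 (Cox8b), chr5:51454250-51567726 (Ppargc1a) and chr4:154316125-154636873 (Prdm16), and all are protein coding. Cidea overlaps B430212C06Rik on the opposite strand, which had at most 149 counts in a library, Dio2 overlaps Gm26512 (at most 15) and Elovl3 overlaps Pitx3 (at most 28). Since the strand setting of the counts is not stated, reads of such pairs cannot be told apart. Total counts per library were 5666563 to 20037187 in VFAT and 2803991 to 12986214 in Heart.

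All 14 white adipocyte markers were detected in each VFAT sample, and their summed level was 6418 to 50299 CPM (counts per 1000000 of the TMM-adjusted total) in Sham and 23947 to 50177 CPM in the 4 nephrectomy arms. Zic1 and Lhx8, markers of classical brown fat, were at 0 or near it: Zic1 was found only in Sham 3 at 0.33 CPM and in scrambled cells 2, 3 and 4 at 2.85, 0.0992 and 1.31 CPM, and Lhx8 reached at most 0.148 CPM. Other tissues left large signals in some VFAT samples. Epididymal markers summed to 22793, 209, 5434, 17284 and 7957 CPM in Sham 1 to 5 and to between 0.329 and 58.3 CPM elsewhere, with 8 of 8 called lower in PNx than in Sham. Skeletal muscle markers summed to 5526, 52396, 725 and 33497 CPM in scrambled cells 1 to 4, to 12120 CPM in Sham 3 and to between 14.6 and 163 CPM in all other samples. Pancreatic acinar markers reached 46092 CPM in scrambled cells 3 and 7732 CPM in scrambled cells 2, and liver markers 5097 and 9496 CPM in control cells 3 and 5 and 2280 CPM in PNx 3, against 36.9 to 63.9 CPM in the other PNx samples. Macrophage markers reached 8154 CPM in scrambled cells 4 and lay between 282 and 1791 CPM in the other VFAT samples. Values of members without some of these samples are given below, and genes that are no members were not refitted without them.

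Ucp1 and Cox7a1 fell in VFAT after nephrectomy. Ucp1 stood at 0.651, 11, 136, 37.3 and 100 CPM in Sham 1 to 5 and at 0.329, 0.415, 1.67, 0.152 and 0.261 CPM in PNx 1 to 5. Sham 2 to 5 lay above every PNx sample, and Sham 1 lay inside the PNx range, so the arms overlapped by that sample. The mean was 57.1 ± 58.8 CPM (SD, n = 5) in Sham and 0.564 ± 0.623 CPM (SD, n = 5) in PNx, a log2 fold change of -6.65 (SE 1.41, 101-fold lower, edgeR quasi-likelihood adjusted p = 0.00389). In bulk tissue, fewer cells of a type and less RNA per cell cannot be told apart. The fall passed the test in each of the 10 fits that left out 1 Sham or PNx sample (log2 -7.53 to -6.04).

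Cox7a1 stood at 1.79, 10.5, 35.8, 12.8 and 26.5 CPM in Sham and at 2.3, 7.06, 3.03, 0.912 and 2.48 CPM in PNx. Again Sham 1 was low and the other 4 Sham samples lay above all PNx samples. The highest was Sham 3, the Sham sample with 12120 CPM of skeletal muscle markers. The log2 fold change was -2.45 (SE 0.754, 5.46-fold lower, edgeR adjusted p = 0.0357). That call was close to the threshold: it was lost when PNx 1, 3, 4 or 5 or Sham 3, 4 or 5 was left out, with adjusted p between 0.0603 and 0.0907, while the log2 fold change stayed between -3.0 and -2.02. The weakest value, -2.02 (edgeR adjusted p = 0.0907), was that without Sham 3. The part of muscle in the fall of Cox7a1 was not tested.

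Cidea and Prdm16 missed the threshold in the same comparison. Cidea was at 5.53, 33.7, 96.7, 32.7 and 92.5 CPM in Sham and at 17.1, 32.1, 3.63, 10.2 and 12.1 CPM in PNx. Its lowest Sham sample was again Sham 1, and the log2 fold change was -1.79 (SE 0.622, edgeR adjusted p = 0.0602). Prdm16 ran the other way round among the Sham samples, at 27.7, 5.08, 8.13, 17.8 and 9.49 CPM, against 9.05, 6.02, 4.24, 2.89 and 4.57 CPM in PNx. Sham 1 and 4, with the most epididymal signal, were the highest for Prdm16. Its log2 fold change was -1.35 (SE 0.463, edgeR adjusted p = 0.0582), and -0.50 (adjusted p = 0.692) without those 2 samples. Cidea passed once PNx 2, Sham 1 or Sham 2 was left out (adjusted p = 0.0325, 0.0287 and 0.0391), and Prdm16 once PNx 1, Sham 2 or Sham 3 was (0.0395, 0.0179 and 0.0494).

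The other 4 members did not pass. Dio2 stood at 0.976, 13.3, 7.14, 1.6 and 5.16 CPM in Sham and at 6.91, 4.67, 20.9, 15.1 and 6.92 CPM in PNx, with a log2 fold change of 0.95 (SE 0.562, edgeR adjusted p = 0.294). Elovl3 ranged from 0.325 to 18.9 CPM in Sham and from 0.261 to 8.78 CPM in PNx, each arm with 1 sample far above the rest. Cox8b averaged 56.6 ± 36.4 CPM in Sham and 56.2 ± 25.3 CPM in PNx (SD, n = 5 each), and Ppargc1a 5.14 ± 1.85 and 5.95 ± 2.55 CPM (SD, n = 5 each). The standard errors of their log2 fold changes were 0.517 for Cox8b and 0.479 for Ppargc1a, so a change of that size was not detectable here. In all, 2 of 8 members were called, both lower, against 13% of the 17552 genes tested (8.18% lower, 4.83% higher). The median log2 fold change of the members was -1.29, against 0.00771 over all genes tested. White adipocyte markers had a median of 0.79, with 1 of 14 called higher.

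**Figure D1:**
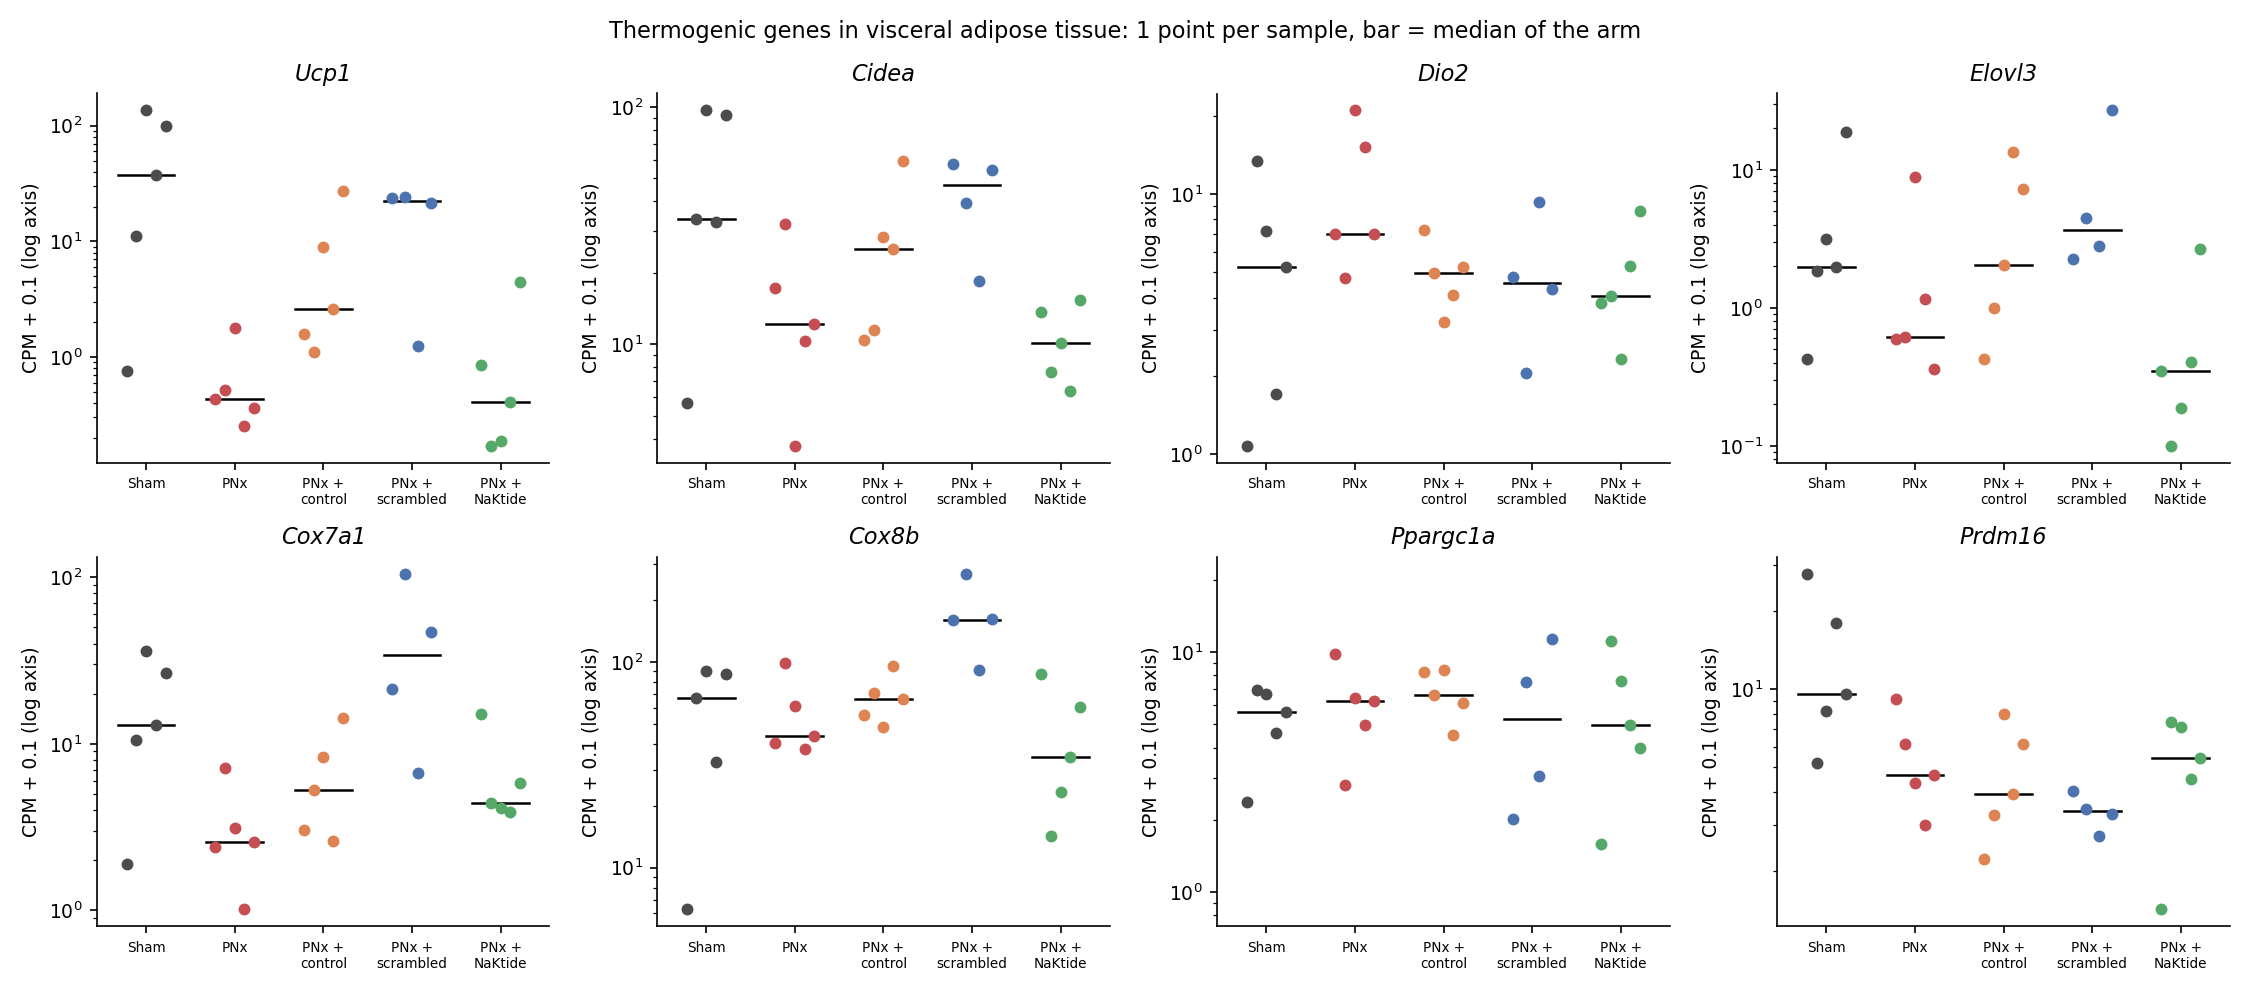
Level of each member in VFAT by arm, as CPM + 0.1 on a log axis, with 1 point per sample and a bar at the arm's median. Ucp1 in Sham 2 to 5 (11 to 136 CPM) sits above all PNx samples (0.152 to 1.67 CPM), while Ppargc1a covers a similar range in the 5 arms.

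Markers of several other cell types move with this comparison. Called lower in PNx were 8 of 8 epididymal, 11 of 12 skeletal muscle and 2 of 8 tested heart muscle markers. Called higher were 5 of 10 macrophage markers (median log2 fold change 1.14) and 3 of 7 endothelial markers (0.88), and of 7 mesothelial markers 2 were higher and 1 lower (2.21). PNx 3, the PNx sample with liver signal, was the highest of its arm for Ucp1 and Elovl3. Without it and control cells 3 and 5, Ucp1 had a log2 fold change of -7.52 (adjusted p = 0.00586), Cox7a1 one of -2.43 (adjusted p = 0.0725) and Elovl3 one of -3.15 (adjusted p = 0.167). Only Sham 2, at 209 CPM, had a low epididymal sum among the Sham samples, and its Ucp1 was 11 CPM, against at most 1.67 CPM in PNx. With Sham 2 as the only Sham sample the log2 fold change of Ucp1 was -4.27 (edgeR adjusted p = 0.863), a fit in which 0 of all genes tested passed and which takes the spread of that sample from the other arms. Sham 1 had the highest epididymal sum, 22793 CPM, and the lowest Ucp1 of its arm. Without Sham 1 and 4 together, Ucp1 was called lower (-7.19, adjusted p = 0.00517), as were Cox7a1 (-2.91, adjusted p = 0.04) and Cidea (-2.29, adjusted p = 0.0374). That fit leaves out the lowest Sham sample of each of these genes, Sham 1. It keeps Sham 3 and 5, with epididymal sums of 5434 and 7957 CPM, so epididymal signal still differed between the arms. Scaling to the white adipocyte markers in place of TMM shifted the median of all genes by -1.45 and gave Ucp1 a log2 fold change of -7.77. What part the other cell types had in these values was not tested.

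The upstream and parallel genes of the pathway were read from 8 lists with 103 genes in all. Of 13 genes of adrenergic input 2 were called, both higher, against 13% of all genes called (4.83% higher). Adrb3, the beta-3 receptor of adipocytes, stood at 635, 717, 779, 853 and 952 CPM in PNx and at 85.1, 493, 378, 35.2 and 202 CPM in Sham (log2 1.72, SE 0.495, edgeR adjusted p = 0.0253). These groups did not overlap, though how many of all genes tested separated likewise was not counted. The adenylyl cyclase gene Adcy4 was 25.8 against 11.5 CPM (log2 1.17, adjusted p = 0.0218). Sham 1 and 4, lowest for Adrb3, were also lowest for Adipoq, the adipokine adiponectin, at 437 and 229 CPM against 2072 to 2649 CPM in PNx (log2 1.10, adjusted p = 0.0784). Leptin, Lep, averaged about the same in both (log2 0.0931, adjusted p = 0.938).

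Of 15 tested brown fat transcription factors, 2 rose and 1 fell in PNx, a share near the 13% of all genes called. Nfia, which acts ahead of the brown program, was 98.6 against 49 CPM (log2 1.01, adjusted p = 0.00613), and the thyroid hormone receptor Thra 139 against 70.2 CPM (log2 0.99, adjusted p = 0.00968). Tbx15, a factor of brown fat and of glycolytic muscle fibres, fell (log2 -4.93, adjusted p = 0.0256), from 17.8 CPM in Sham 3, the Sham sample with muscle markers, and 0.163 to 5.43 CPM in the other Sham samples to at most 0.392 CPM in PNx. Ebf2 and Pparg, which drive adipocyte and brown fat genes, gave log2 0.99 (adjusted p = 0.193) and 0.88 (adjusted p = 0.183).

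Of 20 genes of fuel oxidation 3 fell and 0 rose (edgeR), also near the share of all genes called (13%, 8.18% lower). Cpt1b, the muscle and brown fat carnitine palmitoyltransferase, was at 0.325, 3.51, 9.01, 1.75 and 12 CPM in Sham and at 1.15, 0.727, 0.454, 0.912 and 0.522 CPM in PNx (log2 -2.82, SE 0.735, adjusted p = 0.0148). Pank1, which starts coenzyme A synthesis, fell by 1.59 (adjusted p = 0.023), and Acot11, a thioesterase of brown fat named here after its values were seen, by 2.47 on the log2 scale (adjusted p = 0.0444). Like Ucp1, Cpt1b and Acot11 were lowest in Sham 1.

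Among 10 genes of heat production without UCP1, 4 fell, against 8.18% of all genes. Alpl, the alkaline phosphatase of the futile creatine cycle, went from 45.2, 6.49, 91.8, 226 and 85.8 CPM in Sham to between 5.1 and 8.35 CPM in PNx (log2 -3.85, adjusted p = 0.000288). Sham 2, with little epididymal signal, had an Alpl level inside the PNx range. The calcium pump Atp2a1 (log2 -9.54, adjusted p = 0.0068) and the mitochondrial creatine kinase Ckmt2 (log2 -7.15, adjusted p = 0.0205) are also muscle genes, and both were high in Sham 3, at 1519 and 65.6 CPM, against at most 10.3 and 0.437 CPM in the other Sham samples. Atp2a2, named after its values were seen, fell by 0.85 (adjusted p = 0.0419). The brain-type creatine kinase Ckb gave log2 1.21 (adjusted p = 0.16).

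Of 10 tested beige adipocyte markers 2 fell, against 8.18% of all genes. Otop1, a proton channel of brown and beige fat, was at 0.163, 9.64, 21.6, 7.13 and 32.8 CPM in Sham and at 0.493, 0.934, 1.67, 0.152 and 0.914 CPM in PNx (log2 -4.08, SE 1, adjusted p = 0.0103), with the same low Sham 1 as Ucp1. Cited1 was at 5.53, 0.175, 15.7, 34.6 and 13.8 CPM in Sham and at most 0.519 CPM in PNx (log2 -5.38, adjusted p = 0.000389), and its low Sham sample was Sham 2. The 2 beige markers therefore ranked the Sham samples differently. Of 7 tested secreted factors Igf1 rose (log2 1.53, adjusted p = 0.00474), of 10 restrainers Twist1, a repressor of brown fat genes, rose (log2 1.01, adjusted p = 0.0418), and of 13 cytochrome oxidase subunits outside the members only Cox6a2, the muscle and heart form, was called (log2 -7.33, adjusted p = 0.0169). The list medians lay between -0.72 for heat production without UCP1 and 0.52 for secreted factors.

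With scrambled cells after nephrectomy, Cox7a1 rose against nephrectomy alone. It stood at 21.2, 105, 6.55 and 46.6 CPM in scrambled cells 1 to 4, against 0.912 to 7.06 CPM in PNx. Scrambled cells 3 lay inside the PNx range and the other 3 above it. The log2 fold change was 3.80 (SE 0.807, 13.9-fold, edgeR adjusted p = 0.0145). The order of Cox7a1 over the 4 samples was that of their skeletal muscle sums. Without scrambled cells 2 and 4, which had the largest muscle sums, the log2 fold change was 2.09 (adjusted p = 0.902), without control cells 3 and 5 and PNx 3 it was 3.78 (adjusted p = 0.0634), and without scrambled cells 2, PNx 1 or PNx 4 alone the adjusted p was 0.0712, 0.052 and 0.0509.

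Ucp1 was at 23.7, 23.9, 1.14 and 21.2 CPM in the scrambled arm, 3 samples being close to each other and above all PNx samples. The log2 fold change was 4.93 (SE 1.37, 30.6-fold, edgeR adjusted p = 0.0681), which did not pass. It passed with DESeq2 (4.95, adjusted p = 0.00185) and, in edgeR, without scrambled cells 3 (5.33, adjusted p = 0.0287), and it was 1.04 with scrambled cells 3 as the only sample of its arm. Cox8b, at 159, 268, 91.6 and 162 CPM, overlapped PNx (37.7 to 98.2 CPM) by 1 sample and gave a log2 fold change of 1.60 (SE 0.549, adjusted p = 0.161). Cidea was at 57.1, 39.2, 18.3 and 53.9 CPM (log2 1.48, adjusted p = 0.258) and Elovl3 at 2.16, 4.41, 2.73 and 27 CPM (log2 2.03, adjusted p = 0.447). Without scrambled cells 2 and 4 the log2 fold changes were 4.43 for Ucp1, 1.14 for Cox8b, 1.30 for Cidea and 0.16 for Elovl3, each with an adjusted p of at least 0.902. For Ucp1, Cidea, Cox7a1 and Cox8b scrambled cells 3 was the lowest sample of its arm.

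In all, 1 of 8 members was called in this comparison, against 1.82% of genes tested (1.79% higher, 0.0342% lower). An unadjusted p under 0.05 was found for 4 members and for 2822 of the 17552 genes tested. The median log2 fold change of the 8 members was 1.54, against -0.0124 over all genes. Called higher were 12 of 12 skeletal muscle markers, 4 of 4 tested pancreatic acinar markers, 5 of 8 tested heart muscle markers and 1 of 10 macrophage markers, of which 7 had an unadjusted p under 0.05. Of 7 liver markers 0 were called in edgeR and 7 had an unadjusted p under 0.05 (median log2 fold change -5.73). Scrambled cells 4, with the most macrophage signal (8154 CPM), was the highest for Elovl3. The part of these cells in the members' values was not tested. The pathway genes called were Tbx15 (log2 7.92, adjusted p = 0.00977), Fabp3, a fatty acid carrier of muscle and brown fat (5.93, 0.0209), Cpt1b (3.34, 0.0218), Atp2a1 (13.03, 0.00956), Ckmt2 (10.26, 0.0103) and Cox6a2 (10.80, 0.00956), all of them higher. Each of the 6 ranked the scrambled samples as the skeletal muscle sum did, with scrambled cells 2 highest and 3 lowest, for example 618, 7888, 81.7 and 5152 CPM for Atp2a1. Adrenergic input, secreted factors, beige markers and restrainers had 0 calls in edgeR, with 1, 1, 4 and 0 at an unadjusted p under 0.05.

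NaKtide cells and scrambled cells are the pair that differs by the peptide. In edgeR 0 of 8 members were called, against 2.36% of genes tested (2.12% lower, 0.239% higher). An unadjusted p under 0.05 was found for 5 members and for 3412 of the 17552 genes tested. DESeq2 called 5 members and 1589 of all genes tested. Ucp1 was at 0.744, 0.0703, 0.0892, 0.305 and 4.34 CPM with NaKtide cells, in a range that reached above scrambled cells 3 but below the other 3 scrambled samples. Its log2 fold change was -4.0 (SE 1.26, edgeR adjusted p = 0.0871, DESeq2 adjusted p = 0.0128). Cidea, at 13.5, 7.52, 10, 6.25 and 15.3 CPM, lay below all 4 scrambled samples (18.3 to 57.1 CPM), with a log2 fold change of -2.0 (SE 0.65, edgeR adjusted p = 0.0921). Cox8b, at 86.8, 14.1, 23.2, 34.6 and 60.3 CPM, also lay below all scrambled samples (91.6 to 268 CPM), with a log2 fold change of -1.96 (SE 0.553, edgeR adjusted p = 0.063). How many of all genes tested also had groups that did not overlap was not counted, so this separation is only a description.

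Cox7a1, at 15.1, 4.29, 4.02, 3.81 and 5.68 CPM with NaKtide cells, had a log2 fold change of -2.76 (SE 0.766, edgeR adjusted p = 0.058), and -1.06 without scrambled cells 2 and 4. Without those 2 samples Ucp1 was -3.47, Cidea -1.82, Cox8b -1.50 (adjusted p = 0.645 for each) and Elovl3 -1.94 (adjusted p = 0.769). Elovl3 was at most 2.56 CPM and was listed at 0 in NaKtide cells 2 (log2 -3.84, SE 1.36, adjusted p = 0.112). Dio2, Ppargc1a and Prdm16 had log2 fold changes of -0.11, -0.0163 and 0.64, each with an adjusted p of at least 0.549. Leaving out single samples changed which members passed in edgeR: without NaKtide cells 1, Cox7a1 (adjusted p = 0.0423) and Cox8b (0.0406) did, without NaKtide cells 5, Ucp1 (-5.80, 0.0497), without scrambled cells 1, Cox7a1 (0.0389), and without scrambled cells 3, Cox7a1 (0.0179) and Cox8b (0.0389). The median log2 fold change of the members was -1.98, against 0.00531 over all genes. Because the scrambled samples enter both this comparison and the preceding one, the 2 sets of values are not independent.

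Of the pathway genes, Tbx15 (log2 -7.24, edgeR adjusted p = 0.00793), Cpt1b (-3.27, 0.0207), Pdk4, the kinase that turns off pyruvate oxidation (-2.69, 0.0383), Atp2a1 (-12.25, 0.0078), Ckmt2 (-9.47, 0.00854), Cox6a2 (-8.38, 0.00793) and the phosphodiesterase Pde4d, which degrades cyclic AMP (-2.07, 0.0343), were lower with NaKtide than with scrambled cells. Pde4d was at 4.8, 24, 3.13 and 24.5 CPM in the scrambled arm, high in the 2 samples with the largest muscle sums. Called lower were also 12 of 12 skeletal muscle, 4 of 4 tested pancreatic acinar, 4 of 8 tested heart muscle and 2 of 10 macrophage markers. Their part in the members' values was not tested.

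**Figure D2:**
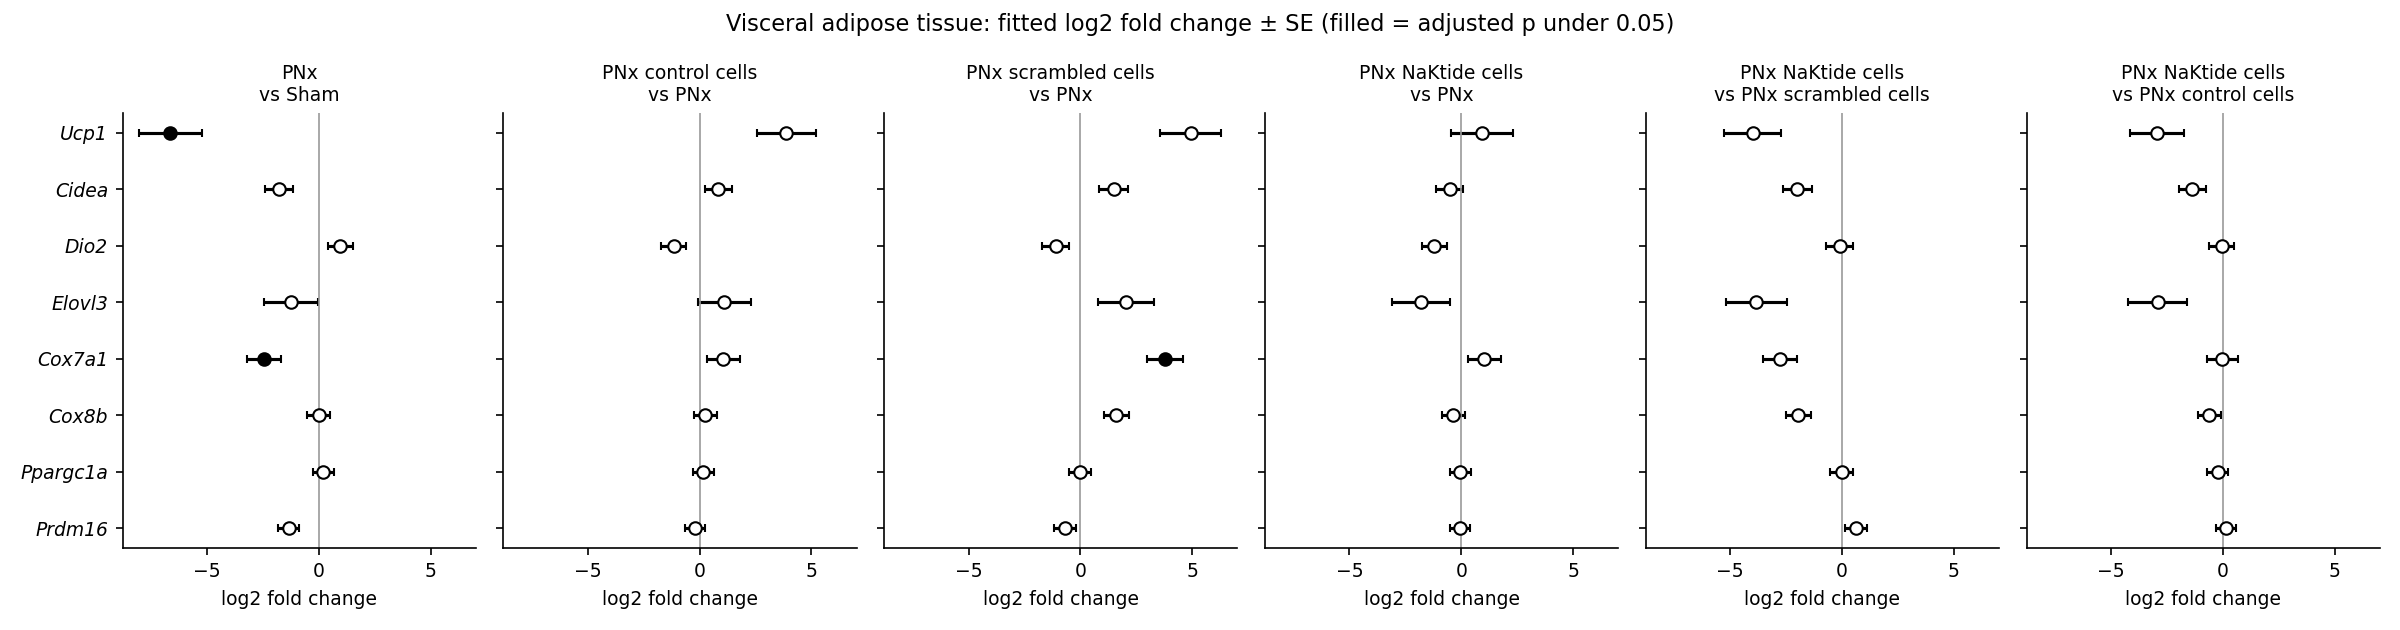
Fitted log2 fold change of each member in 6 VFAT comparisons, with bars of 1 standard error and filled points for an adjusted p under 0.05. The filled points are Ucp1 (-6.65) and Cox7a1 (-2.45) in PNx vs Sham and Cox7a1 (3.80) in scrambled cells vs PNx.

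Against nephrectomy alone, control cells and NaKtide cells each gave 0 called members of 8 and 0% of genes called in edgeR, and DESeq2 called 0 members in each. With control cells Ucp1 was at 1.47, 0.993, 8.82, 2.51 and 27.1 CPM, higher than PNx in all but control cells 1 and 2, which lay inside the PNx range. Its log2 fold change was 3.88 (SE 1.32, unadjusted p = 0.00759, edgeR adjusted p = 1). The highest values, in control cells 3 and 5, came from the 2 samples of this arm with liver signal, and without them and PNx 3 the log2 fold change was 2.41 (adjusted p = 1). Cidea was at 10.3, 11.4, 28.1, 25.1 and 59 CPM in this arm and was highest in control cells 5 (log2 0.83, and -0.20 without those 3 samples). With NaKtide cells the log2 fold change of Ucp1 against PNx was 0.94 (SE 1.39, adjusted p = 0.969). Dio2, at 3.72, 3.94, 2.23, 5.18 and 8.47 CPM with NaKtide cells and 3.11 to 7.16 CPM with control cells, had log2 fold changes of -1.21 (SE 0.563, adjusted p = 0.969) and -1.16 (SE 0.564, adjusted p = 1) against PNx. NaKtide against control cells also gave 0 calls (0% of genes, and 0 members in DESeq2), with Ucp1 at -2.94 (SE 1.2, adjusted p = 0.496), Elovl3 at -2.92 (SE 1.3, adjusted p = 0.582) and Cidea at -1.36 (SE 0.617, adjusted p = 0.601). Without control cells 3 and 5 and PNx 3, Ucp1 was at -0.60 (adjusted p = 0.913) and Cidea at -0.57 (adjusted p = 0.825) in that comparison. Same-numbered samples of the control and NaKtide arms deviated together (r 0.34 to 0.69). The p-values given here for NaKtide against control cells do not use that pairing. Unadjusted p was under 0.05 for Ucp1 with control cells (0.00759), for Dio2 with NaKtide cells against PNx (0.0432), and for Ucp1 (0.0223), Elovl3 (0.0345) and Cidea (0.039) with NaKtide against control cells. Of the 17552 genes tested, 442 were under 0.05 with control cells and 652 with NaKtide cells against PNx. With NaKtide against control cells 1330 were.

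Over the 5 VFAT arms at once, Ucp1 (edgeR adjusted p = 0.00226), Cox7a1 (0.0046), Prdm16 (0.0176) and Cidea (0.0404) differed, 4 of 8 members against 18.4% of genes tested. Cox8b (0.0513), Elovl3 (0.223), Dio2 (0.316) and Ppargc1a (0.97) did not pass. Without Sham 4, 2 of the 8 passed. The median Ucp1 level was 37.3 CPM in Sham, 0.329 in PNx and 2.51 with control cells, and in the 5 NaKtide samples 4 lay under 1 CPM. In the same test Alpl (7.97e-06), Fabp3 (0.00238), Gatm, an enzyme of creatine synthesis (0.0166), Cpn2 (0.00972), Tbx1, a beige marker (0.0471) and Trpv4, a channel that restrains thermogenesis (0.0494), also differed. Tbx1 was highest in scrambled cells 2 and 4, at 8.95 and 4.23 CPM, and Cpn2 in control cells 3 and 5, at 18.4 and 57.4 CPM, the samples with liver signal.

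The members did not vary as 1 group over the 24 VFAT samples. On log2 CPM, which share library and depth, Pearson's r with Ucp1 was 0.83 for Cidea, 0.79 for Cox7a1, 0.72 for Elovl3 and 0.52 for Cox8b, against 0.19 for Prdm16, 0.07 for Ppargc1a and -0.09 for Dio2. Cox8b and Prdm16 ran against each other (-0.59), as did Dio2 and Prdm16 (-0.47). Ppargc1a had r between -0.04 and 0.15 with all others. These correlations are descriptions and mix differences between and within arms.

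**Figure D3:**
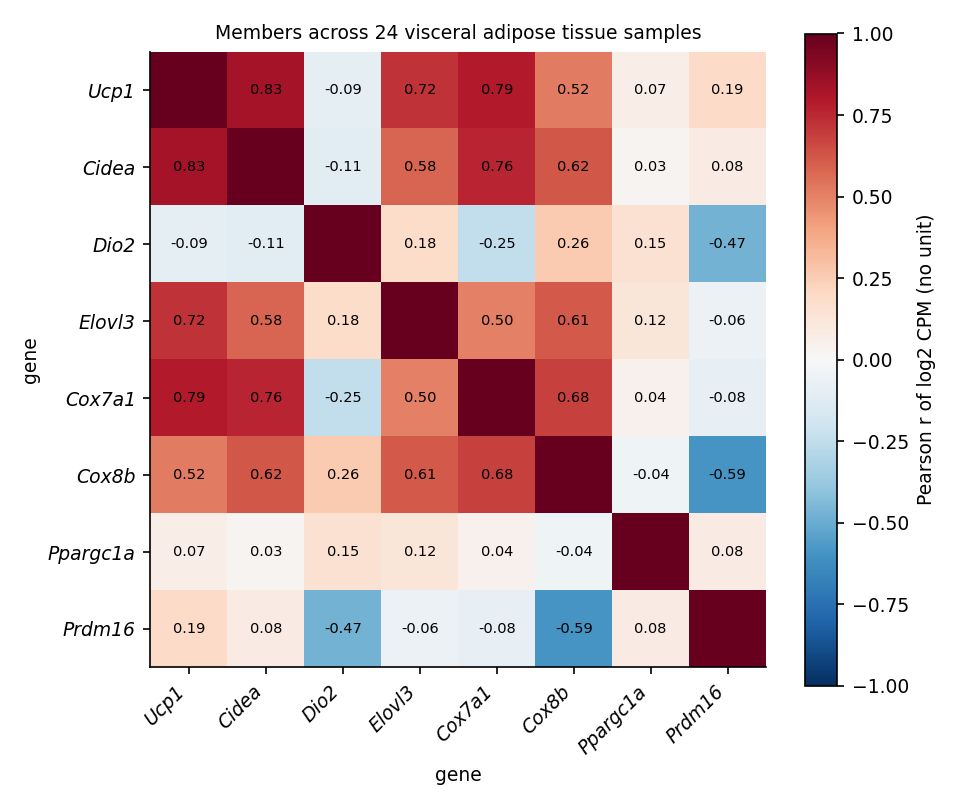
Pearson correlation of log2 CPM between the members over the 24 VFAT samples, with red for positive and blue for negative values. Ucp1, Cidea, Elovl3, Cox7a1 and Cox8b form a block of positive values (0.50 to 0.83), and Ppargc1a is near 0 with every other member.

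Members also followed markers of other tissues to different degrees. Over the 24 samples Cox7a1 and Cox8b had r of 0.79 and 0.71 with the summed skeletal muscle markers, and Ucp1 0.55. Prdm16 had r of 0.68 with the epididymal sum and -0.75 with the white adipocyte sum, Dio2 0.66 with the white adipocyte sum, and Ucp1 0.45 and -0.23 with these sums.

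**Figure D4:**
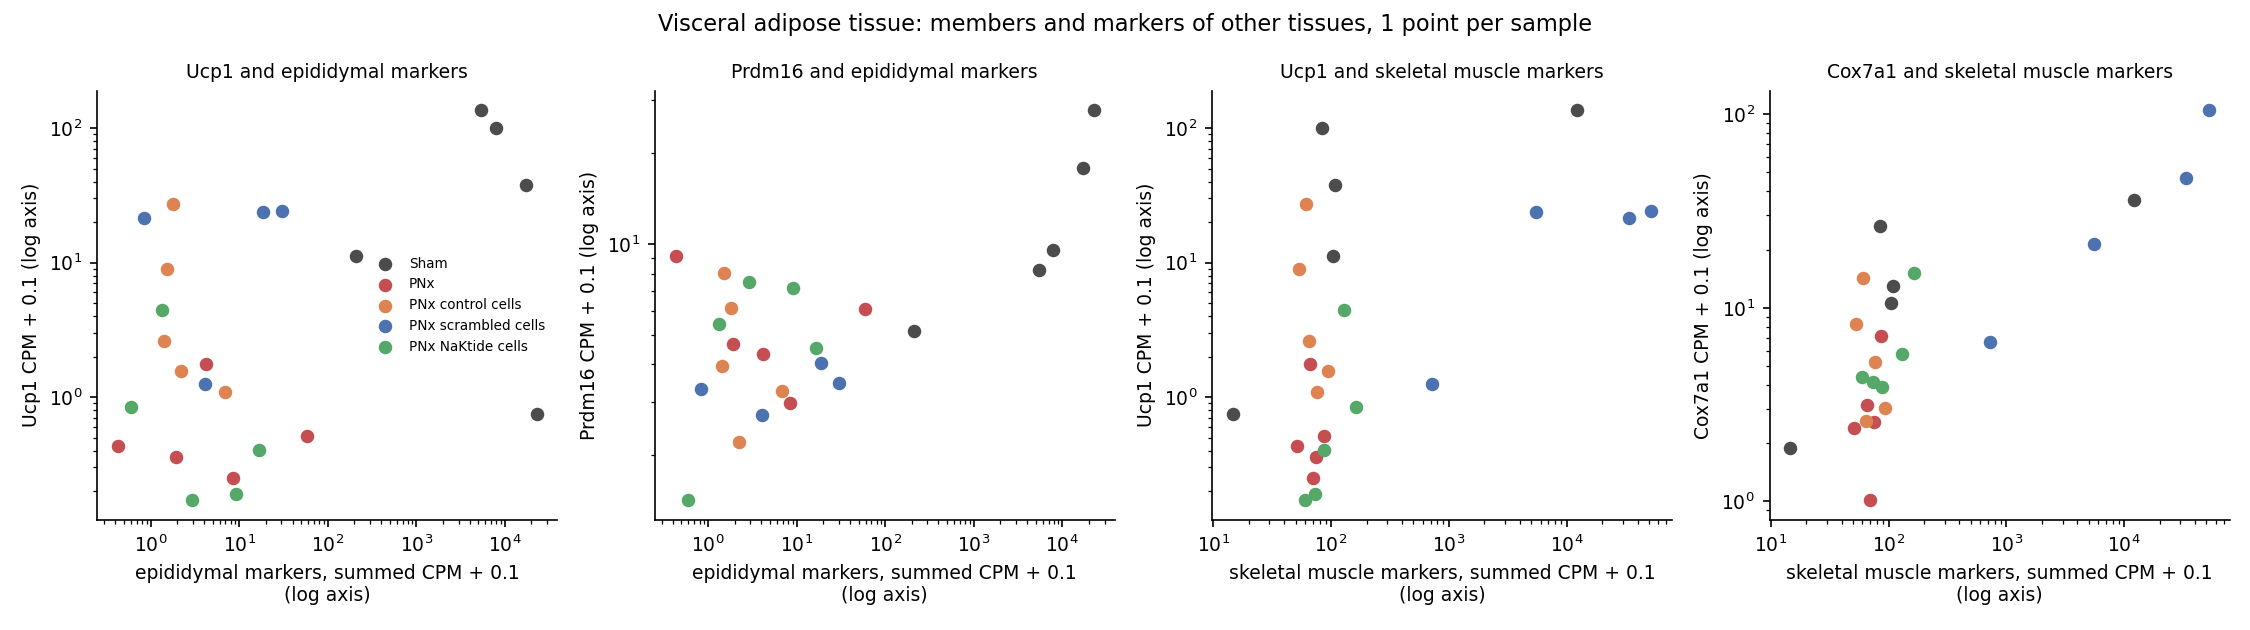
Ucp1 or Prdm16 against the summed epididymal markers and Ucp1 or Cox7a1 against the summed skeletal muscle markers in VFAT, as CPM + 0.1 on log axes, with 1 point per sample coloured by arm. Cox7a1 is highest in scrambled cells 2 (105 CPM), the sample with the largest muscle sum (52396 CPM), and Prdm16 in Sham 1 (27.7 CPM), the sample with the largest epididymal sum (22793 CPM).

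Among 14568 named genes the patterns most like Ucp1 in VFAT (Pearson's r of log2 CPM, 24 samples) were those of Otop1 (0.937), Slc15a5 (0.914), Cdsn (0.846), Hoxc10 (0.817) and Ncan (0.815). For Cidea they were Slc15a5 (0.837) and Otop1 (0.834), for Dio2 Adamts12 (0.824) and Napepld (0.823), and for Elovl3 Aqp11 (0.785) and Uck2 (0.764). Cox7a1 was most like Adprhl1 (0.876) and Ak1 (0.860), Cox8b like Cox5a (0.947) and Cyc1 (0.935), which encode parts of the respiratory chain, Ppargc1a like Nin (0.822), and Prdm16 like Nexmif (0.929) and Rnf180 (0.920). Otop1 in the scrambled arm was at 9.47, 8.17, 0.943 and 3.07 CPM and with NaKtide cells at 0.414, 0.492, 0.178, 0.305 and 1.34 CPM, low in scrambled cells 3 as Ucp1 was.

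In Heart the 2 oxidase subunits were abundant, Cidea was present in every library, and Ucp1 was at or near 0 in all but 1 library. Cox8b and Cox7a1 had medians of 1011 and 915 FPKM over 25 libraries, Cidea 17.1, Ppargc1a 9.22, Prdm16 1.33, Dio2 0.339, Elovl3 0.0594 and Ucp1 0 FPKM. Heart muscle itself expresses Cox7a1, Cox8b and Ppargc1a. Cidea was detected in each library (11.6 to 33 CPM), including those with 0 counts of Ucp1, and its r with Ucp1 over the 25 libraries was 0.45. The summed heart muscle markers were at least 32801 CPM in the Sham and PNx libraries, with all 10 detected.

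Ucp1 had 0 counts in 16 of 25 Heart libraries, which allows up to 0.248 to 0.538 CPM by counting error alone. It was at 1.08, 0.652, 0.455, 0 and 0.658 CPM in Sham, at 0 in the 5 PNx libraries, at 0 in all but control cells 5 (0.0798 CPM) and all but NaKtide cells 3 (0.119 CPM) of those arms, and at 0, 0, 0.115, 52.2 and 0.863 CPM with scrambled cells. Scrambled cells 4 alone held 545 counts. In that library Elovl3 was 3.45 CPM, Otop1 6.04 CPM, Adrb3 7.38 CPM, Adipoq 49.8 CPM and Cidea 27.1 CPM, the highest of its arm for each. Fasn, the fatty acid synthase, was 746 CPM and Plin1, the adipocyte lipid droplet coat protein, 52.8 CPM there. The only other Heart library with over 4 CPM of Adipoq was Sham 5, at 12 CPM, with 0.658 CPM of Ucp1 and 4.28 CPM of Adrb3. Atrial markers summed to 5014 CPM in scrambled cells 4, and to 4966, 6225 and 7910 CPM in PNx 5, control cells 1 and NaKtide cells 5.

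Ucp1 and Elovl3 were too low for the Heart fit, so the exact permutation test of log2 CPM was used, two-sided, in 4 tests. Ucp1 had 0 counts in the 5 PNx libraries together and 18 in the 5 Sham libraries (exact permutation p = 0.0476, adjusted over the 4 tests 0.19). With NaKtide cells it had 1 count against 558 with scrambled cells (exact permutation p = 0.286, adjusted 0.381), nearly all of them in scrambled cells 4. Elovl3 had 24 counts in PNx and 3 in Sham (exact permutation p = 0.722, adjusted 0.722), and 3 with NaKtide cells against 41 with scrambled cells (exact permutation p = 0.19, adjusted 0.381). Its high PNx value came from PNx 4 alone, at 3.71 CPM, a library with 0 counts of Ucp1 and 1268 CPM of liver markers. At this depth no difference in either gene was detectable after adjustment.

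Of the 6 members fitted in Heart, 0 were called in edgeR for PNx vs Sham, against 0.126% of the 15091 genes tested (0.113% lower, 0.0133% higher). An unadjusted p under 0.05 was found for 2 of the members and for 2387 of all genes tested. DESeq2 also called 0 members. Cox7a1 was at 511, 1281, 1369, 485 and 440 CPM in Sham and at 450, 485, 378, 594 and 491 CPM in PNx, and Cox8b at 426, 1013, 1302, 391 and 310 CPM and at 414, 378, 292, 446 and 351 CPM. Sham 2 and 3 stood far above all others, and the remaining Sham libraries lay within the PNx range. The log2 fold changes were -0.77 (SE 0.259, edgeR adjusted p = 0.181) and -0.87 (SE 0.285, adjusted p = 0.174). Sham 2 and 3 also had the highest heart muscle sums, at 67889 and 79133 CPM, and proximal tubule markers at 1151 and 3515 CPM. They were the shallowest Heart libraries, at 5412094 and 2803991 counts, against a median of 8495773. The part of depth in these values was not tested. Without Sham 5 both genes passed, with adjusted p of 0.0494 and 0.0426.

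Over the 5 Heart arms Cox7a1 and Cox8b differed (edgeR adjusted p = 0.0258 for each), 2 of 6 fitted members against 7.94% of genes tested, and 11 of the 13 other oxidase subunits were called as well. None of the members was called without Sham 2 and 3 together, nor without Sham 2, Sham 3 or scrambled cells 4 alone, and 1 was called without scrambled cells 5. Over the 25 libraries both genes had r of 0.85 with the heart muscle sum. For NaKtide against scrambled cells 0 of 6 members were called in edgeR, against 0% of genes. Dio2 was at 4.9, 1.58, 7.97, 5.94 and 2.44 CPM with scrambled cells and at 1.55, 1.27, 0.955, 0.547 and 1.44 CPM with NaKtide cells. These groups did not overlap, and the log2 fold change was -1.94 (SE 0.573, unadjusted p = 0.00242, edgeR adjusted p = 0.721). How many of all genes tested in Heart separated likewise was not counted, so this separation too is only a description. Dio2 was highest in scrambled cells 3, which had 1054 CPM of macrophage and 1067 CPM of liver markers, against 195 to 297 and 5.32 to 93.8 CPM in the other scrambled libraries. Over the 25 libraries Dio2 had r of 0.60 with the macrophage sum and 0.56 with the liver sum. In the same comparison 0 liver and 0 white adipocyte markers were called in edgeR, with 5 of 7 (median log2 fold change -3.93) and 5 of 10 (-2.66) at an unadjusted p under 0.05. Of the 15091 genes tested, 903 had such a p. The part of these cells in the Dio2 values was not tested. Ppargc1a (19.3 to 79.9 CPM over all Heart libraries), Prdm16 (5.95 to 13.9 CPM) and Cidea had log2 fold changes between -0.28 and -0.14 in that comparison.

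**Figure D5:**
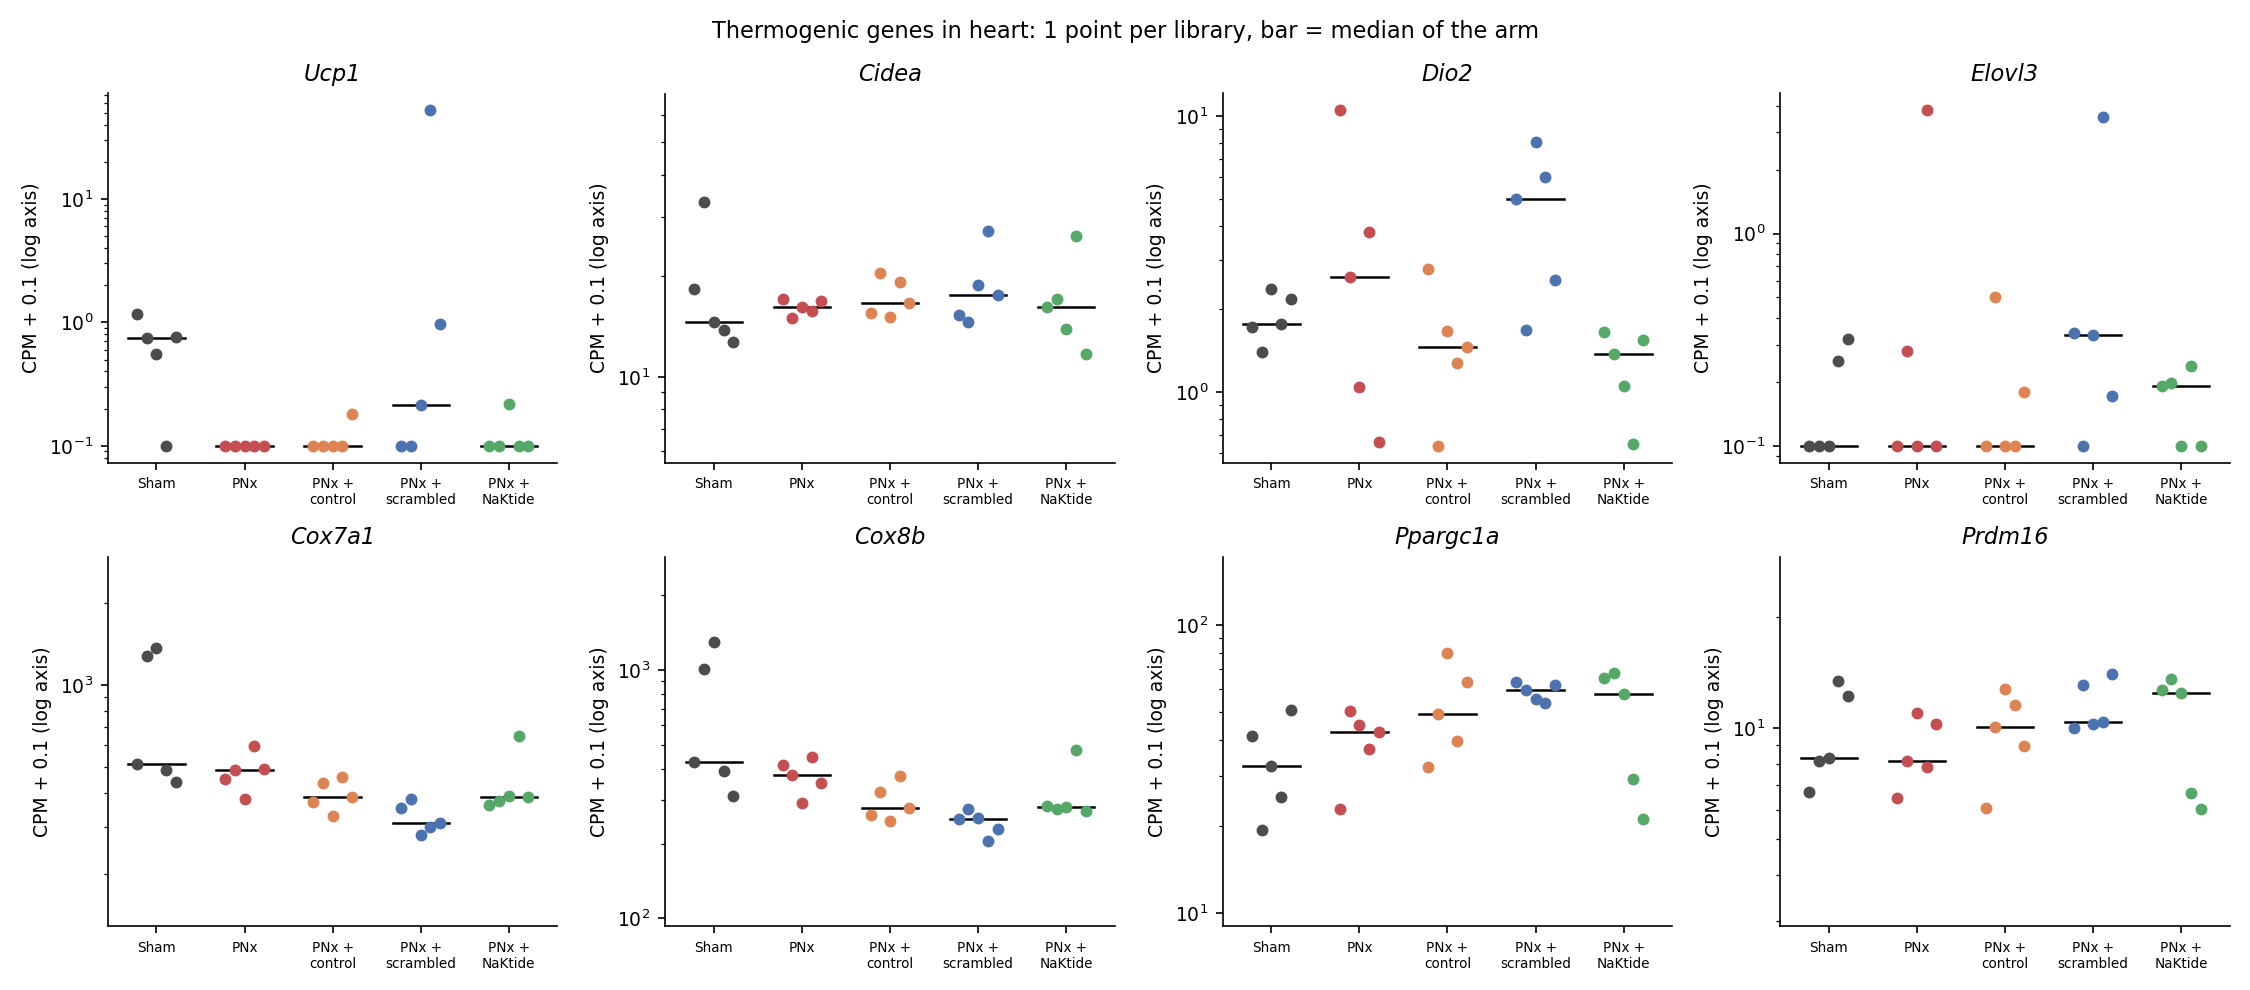
Level of each member in Heart by arm, as CPM + 0.1 on a log axis, with 1 point per library and a bar at the arm's median. Ucp1 is at 0 in 16 of 25 libraries and at 52.2 CPM in scrambled cells 4, and Cox7a1 and Cox8b are highest in 2 Sham libraries.

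The genes most like Ucp1 over the 25 Heart libraries, among 12728 compared, were Acaca (r 0.911), Fasn (0.892), Acly (0.869), Elovl6 (0.833) and Plin1 (0.822), 4 of them enzymes of fatty acid synthesis and elongation. Each was highest in scrambled cells 4, the library with the most Ucp1, Acaca at 128 CPM, Acly at 189 CPM and Elovl6 at 35.8 CPM. Ucp1 had 0 counts in 16 of the 25 libraries and 545 in scrambled cells 4, so these r rest on few libraries. They were not computed without scrambled cells 4.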

How the data were processed

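RNA from flash-frozen tissue (RNeasy Plus Universal kit) was sequenced with paired reads on an Illumina instrument, per the labels' protocols. The submitters' processing notes name the build GRCm38 and the tools HISAT2 2.1.0, Trimmomatic 0.38 and DESeq2 (1.20.0 and 1.20.1), but not what each did. The counter, annotation and strand setting were not given in the sources used here. The deposited raw counts per gene carry no normalization by the authors. The deposited FPKM values were scaled by the authors for depth and gene length, and served only to compare levels between genes. Another deposited table, of normalized values, was not used.

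Each tissue was fitted over its 5 arms with edgeR 4.0.16 in R 4.3.3 (TMM scaling, expression filter, quasi-likelihood F test), Benjamini-Hochberg adjusted over all genes tested and called at an adjusted p under 0.05, and the code was tested on simulated counts. CPM are counts per 1000000 of the TMM-adjusted total, and log2 CPM used a prior count of 2. Kidney libraries were only described. The alternatives were DESeq2 1.42.0, its size factors, no filter, only the arms compared, a replicate block, plain library totals, the second library left out, prior count 0.5 and leaving out samples. Leaving out samples with signals of other tissues, and scaling to white adipocyte markers, were chosen after seeing the data.

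The 2 libraries of scrambled cells 3 in VFAT (reduced chi-square 18.73, where other pairs of that arm gave 57.8 to 187) held 13 and 10 counts of Ucp1 and were summed as 1 sample. By the numbers in the titles, only VFAT control and NaKtide cells deviated together in all 5 pairs (r 0.34 to 0.69), so the numbers were taken to pair those arms. The reported fit did not use that pairing.

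The members, lists and comparisons were chosen with earlier results of these data known. Named beside the members are at most 4 called genes per pathway list, by lowest adjusted p over the VFAT comparisons, the always-named Adrb3, Ebf2, Pparg, Cpt1b, Ckb, Adipoq and Lep, and the genes most like each member (5 for Ucp1, 2 for the others, of which 1 is not reported here).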

Additional observations from a re-analysis of the deposited data

Results flagged for a closer look

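In 74 groups of a member in an arm, 14 had 1 sample far from the rest by Dixon's criterion on CPM. Normally distributed values meet that criterion in about 1 in 20 groups. CPM of genes with few reads need not be so distributed, so the 14 cannot be judged against that rate. Ucp1 in VFAT was 1.67 CPM in PNx 3 (next highest 0.415), 1.14 CPM in scrambled cells 3, the lowest of its arm (next 21.2), and 4.34 CPM in NaKtide cells 5 (next 0.744). Elovl3 in VFAT was 18.9 CPM in Sham 5, 8.78 CPM in PNx 3, 27 CPM in scrambled cells 4 and 2.56 CPM in NaKtide cells 5, each the highest of its arm. Cox7a1 in VFAT was 15.1 CPM in NaKtide cells 1 (next 5.68).

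In Heart, Ucp1 was 52.2 CPM in scrambled cells 4 (next 0.863), and Elovl3 was 3.45 CPM there and 3.71 CPM in PNx 4. Cidea was 33 CPM in Heart Sham 2 (next 18.1). Cox7a1 and Cox8b were 650 and 478 CPM in Heart NaKtide cells 4 (next 388 and 284).

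The Kidney libraries enter no comparison here. There Ucp1 had 0 counts in 14 of 26 libraries, and control cells 5 stood at 145 CPM of its plain total, 180 counts, with Cidea at 34.6 CPM, 43 counts. The next highest Kidney libraries were at 2.49 CPM of Ucp1 and 3.55 CPM of Cidea. The same library had 179 CPM of Cox8b, 91.8 CPM of Cox7a1 and 20.9 CPM of Adipoq but 0 counts of Otop1 and Elovl3. At 1241590 counts it was the shallowest of the series.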

How the results depend on the processing

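The fall of Ucp1 in VFAT PNx vs Sham passed under each alternative run except with Sham 2 as the lone Sham sample, and low counts, 10 of 24 samples under 10, limit its size. That of Cox7a1 lay near the threshold. The cause of the changes below was not tested, but fewer samples or arms enter several of these fits.

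Members called in PNx vs Sham were 2 in the reported fit, 4 with DESeq2, 1 with the replicate block, 1 with only the arms compared, 4 scaled to white adipocyte markers, 0 with Sham 2 as the lone Sham sample, 1 without control cells 3 and 5 and PNx 3, and 1 to 4 leaving out 1 sample. For scrambled cells vs PNx they were 1, then 2 with DESeq2, 2 with the replicate block and 0 with only the arms compared. Without Sham 1 and 4 they were 3. Without scrambled cells 2 and 4, and without control cells 3 and 5 and PNx 3, they were 0. Leaving out 1 sample gave 0 to 2. For NaKtide vs scrambled cells they were 0, then 5 with DESeq2 and 1 with the replicate block. They were 3 without Sham 1 and 4, where calls among all genes rose as well, and 0 to 2 leaving out 1. Over the 5 VFAT arms they were 4, then 2 with the replicate block, 1 with Sham 2 alone, 1 without scrambled cells 2 and 4, 1 with scrambled cells 3 alone, and 2 to 5 leaving out 1. In Heart they were 0 for PNx vs Sham (0 to 2 leaving out 1) and 2 over the 5 arms, then 0 with the replicate block, 0 without Sham 2 and 3, and 0 to 3 leaving out 1. Calls among all genes in VFAT PNx vs Sham were 2283, against 3078 with DESeq2, 1654 with the replicate block, 12415 scaled to white adipocyte markers (12319 lower, 17552 tested), 384 with only the arms compared and 551 without Sham 1 and 4. For scrambled cells vs PNx they were 320, against 902 with DESeq2, 39 with only the arms compared and 139 with the replicate block. Without scrambled cells 2 and 4 they were 15, and without Sham 1 and 4 they were 484. Without control cells 3 and 5 and PNx 3 they were 27. Leaving out 1 sample gave 134 to 709. For NaKtide vs scrambled cells they were 414, against 1589 with DESeq2, 65 with only the arms compared and 179 with the replicate block. Without Sham 1 and 4 they were 802, and leaving out 1 sample gave 147 to 740. Over the 5 VFAT arms they were 3222, against 1889 with the replicate block and 2624 without scrambled cells 2 and 4. Over the Heart arms they were 1198, against 2873 with DESeq2, 14 with the replicate block and 1 without Sham 2 and 3.

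Log2 fold changes that turned sign had no call on either side. In PNx vs Sham with Sham 2 alone Dio2 was -0.30, Elovl3 0.32, Ppargc1a -0.20 and Prdm16 0.0806. Cox8b was 0.0108 without the filter, 3.96e-05 with the replicate block and 0.0033 with scrambled cells 3 alone, and Ppargc1a was -1.04 scaled to white adipocyte markers, which moved the median of all genes by -1.45, and -0.0912 without Sham 1 and 4. Cidea in control cells vs PNx was -0.20 without control cells 3 and 5 and PNx 3. Ppargc1a in NaKtide vs scrambled cells was 0.056 without the filter, 0.0552 with only the arms compared, 1.24 without scrambled cells 2 and 4 and 0.94 with scrambled cells 3 alone. Cox7a1 in NaKtide vs control cells was 0.00413 without the filter and 0.00574 with scrambled cells 3 alone. It was 0.89 without control cells 3 and 5 and PNx 3, and it also turned positive with the replicate block. In Heart PNx vs Sham without Sham 2 and 3 Cidea was 0.0945 and Ppargc1a -0.000785. Leaving out 1 sample gave ranges across 0 for Cidea in Heart NaKtide vs scrambled cells (-0.33 to 0.0336) and PNx vs Sham (-0.31 to 0.12), Cox7a1 in NaKtide vs control cells (-0.58 to 0.49), Cox8b (-0.31 to 0.22), Elovl3 (-3.15 to 0.28) and Ppargc1a (-0.043 to 0.39) in PNx vs Sham, Dio2 (-0.43 to 0.37) and Ppargc1a (-0.38 to 0.52) in NaKtide vs scrambled cells, Ppargc1a in scrambled cells vs PNx (-0.56 to 0.26) and Ucp1 in NaKtide cells vs PNx (-0.87 to 1.81).

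The replicate block used the numbers in the titles, with 1 effect per number shared by all 5 arms of a tissue. Arms that share only a number therefore help to set that effect. A paired test of VFAT control and NaKtide cells alone was not run. In NaKtide against control cells of VFAT, the pair taken as paired, the blocked fit called 0 members, as the unblocked fit did. The blocked fit gave Cox7a1 a log2 fold change of 0.28, against -0.0164 without the block. In the other pairs of arms the samples share only a number: for Sham and PNx in VFAT 1 of 5 pairs had a correlation above 0.1 (-0.54 to 0.37), and the blocked Cox7a1 value was -2.52 (adjusted p = 0.0559). Settings that left the calls of the members within 1.5 times in VFAT and Heart were the size factors of DESeq2 in edgeR and no filter, and those with the second library left out or plain totals changed no direction or call. Heart has no second library, so that alternative was not run there.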
